A study of Mus musculus with 36 samples.

Results

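The genes described here are 9 markers of monocytes and macrophages: Adgre1, F13a1, Mrc1, Msr1, Cd14, Hp, Chil3, Bst1 and Fcgr1. Each is represented by 1 probe set whose platform annotation carries that gene symbol alone, and together they are 9 of the 19938 genes measured with a single symbol. They were chosen by their role as markers and with knowledge of their measured log2 change between 0 and 24 h of TGF-β1. The changes against untreated cells are therefore given as a description without p-values, and tests were kept for other contrasts. Levels were followed in 2 progenitor populations of mouse bone marrow, common dendritic cell progenitors (CDP) and multipotent progenitors (MPP), which had been cultured in cytokines and then purified by FACS. Each population received recombinant human TGF-β1 at 10 ng/ml for 2, 4, 8, 12 or 24 h, or none (0 h). Every one of the 12 groups holds 3 biological replicates by the study's account, so 36 arrays were read (Affymetrix Mouse Gene 1.0 ST). The labels give no mouse strain, sex or age, and no untreated arrays of later times were analysed here. Exposure to TGF-β1 and time in culture cannot be told apart.

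Monocytes and macrophages are phagocytes that arise from myeloid progenitors, and in the bone marrow they share early precursors with dendritic cells and granulocytes. The 9 markers stand for different tools of these cells: surface receptors that bind bacteria, sugars, modified lipoproteins or antibody, an ectoenzyme, and proteins that are secreted or stored in granules. TGF-β signals through a pair of serine/threonine kinase receptors and Smad transcription factors, and it is known for its role in the development of Langerhans cells, which are resident in the epidermis.

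All levels below are log2 intensities, so a step of 1 is a doubling, and probe sets of different genes cannot be compared by level. The medians of the arrays lay between 7.49 and 7.66, and arrays of 1 group correlated at 0.9855 or more. The dendritic progenitor list (16 of 16 genes measured) averaged 10.25 to 10.37 on the CDP arrays and 8.86 to 8.93 on the MPP arrays at 0 h. The stem and multipotent progenitor list (11 of 12) averaged 9.05 to 9.16 in CDP and 9.77 to 9.91 in MPP. Neutrophil markers (17 of 18) were far higher in MPP, at 8.15 to 8.49 in CDP and 10.74 to 11.45 in MPP. One library stood apart: in CDP at 2 h, replicate 3 averaged 12.37 over the interferon-stimulated genes (13 of 16 measured), against 8.05 and 8.08 on the other arrays of that group. CDP replicate 3 at 0 h (10.20) and CDP replicate 1 at 4 h (10.24) were also high for this list. At 4, 8, 12 and 24 h CDP replicate 3 read 9.66, 9.15, 8.82 and 9.70, against 7.98, 7.76, 7.72 and 8.19 for replicate 2. CDP replicate 1 at 24 h read 9.17. MPP replicate 3 at 0 h averaged 8.79, against 7.80 and 7.76 on the other arrays of that group. Results of the 9 markers that the 2 h array or CDP replicate 1 at 4 h moved over a threshold are given with and without it. Other listed genes were not checked in this way.

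Between 0 and 24 h, 8 of the 9 markers were lower in CDP and 4 of 9 in MPP by the thresholds used here, a Benjamini-Hochberg adjusted p under 0.01 over all genes and a log2 difference of at least 1 ("called"). These contrasts share the 0 h arrays and are the ones known when the markers were picked, so nothing is read from the counts. In CDP the number called lower was 1, 2, 6, 7 and 8 at 2, 4, 8, 12 and 24 h, where 0.0602%, 0.271%, 0.547%, 0.998% and 1.79% of all genes were called lower. In MPP it was 0, 1, 2, 2 and 4, beside 0.0451%, 0.135%, 0.196%, 0.231% and 0.487% of all genes. Without CDP replicate 3 of 2 h, the CDP number at 2 h was 0. It was also 0 without any 1 replicate number, without CDP replicate 1 or 3 of 0 h and without CDP replicate 2 of 2 h. The median change of the 9 markers at 24 h was −2.33 in CDP and −0.99 in MPP, while the median over all genes was 0.00097 in CDP and −0.00811 in MPP. No marker was called higher. In bulk RNA, fewer cells of a type and less RNA per cell cannot be told apart.

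**Figure D1:**
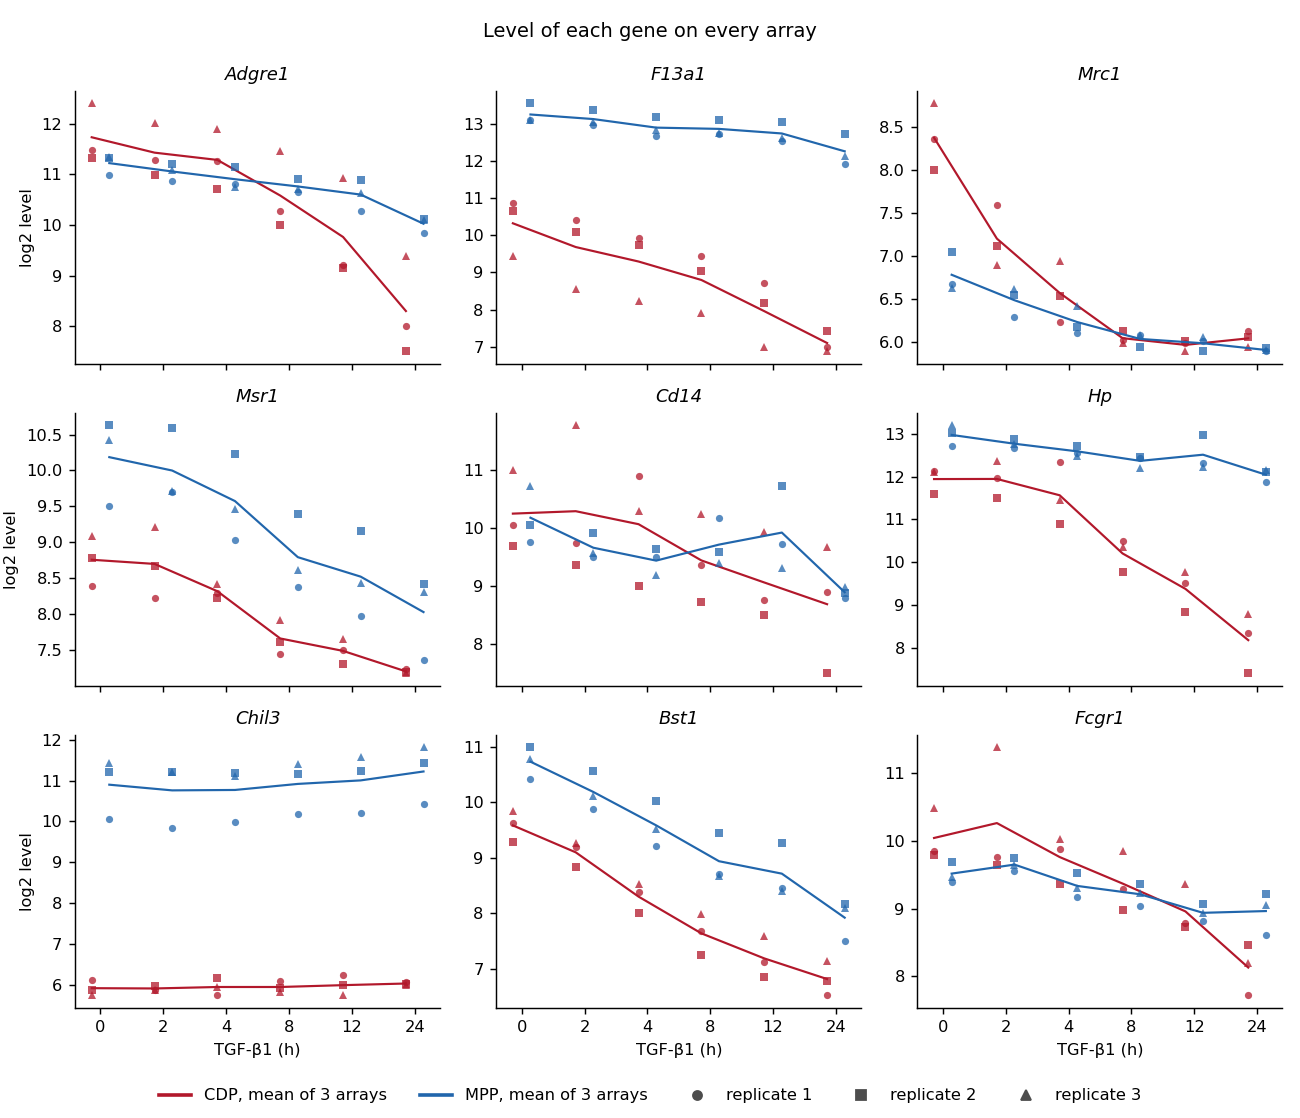
Log2 level of the 9 markers (y axis, a scale per gene) against hours of TGF-β1 (x axis, times evenly spaced) on all 36 arrays; symbols are replicates and lines are means of 3 arrays, CDP in red and MPP in blue. Hp, Adgre1 and F13a1 drop by over 3 in CDP by 24 h, Bst1 drops alike in both cell types, and Chil3 stays near 6 in CDP and near 11 in MPP.

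The contrast tested for change over time was 12 h against 2 h within each cell type, whose difference is taken from 2 h and 12 h levels alone. The 0 h and 24 h arrays of the fit still enter its spread, and the arrays come from the same cultures and courses and give no independent support for the fall at 24 h. In CDP, 7 of the 9 markers fell (limma, replicate number as a block), where 0.582% of all 19938 genes were called lower. In MPP, Msr1 and Bst1 fell, 2 of 9, where 0.115% of all genes were called lower. The median difference of the markers was −1.30 in CDP and −0.46 in MPP. The change in CDP exceeded that in MPP, by a test of the difference itself, for Adgre1, F13a1 and Hp, 3 of 9, where 0.326% of all genes were called in this direction. The CDP count was 4 without the replicate block, 4 when only the 6 arrays of both times were fitted, 3 without replicate 2 and 6 without replicate 3 of the 2 h group. The MPP count was 1 without the block. The count for the difference between the cell types was 1, Hp, without the block and without replicate 2.

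**Figure D2:**
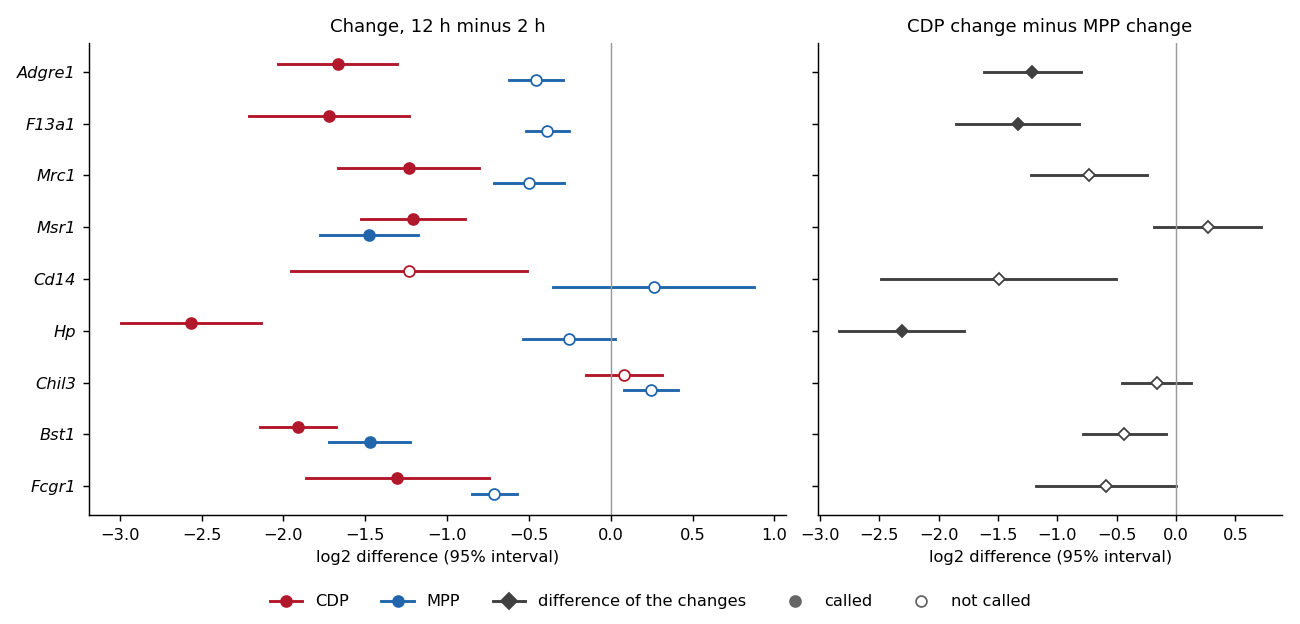
Log2 difference of 12 h minus 2 h (left, x axis) for each marker (y axis) in CDP (red, upper) and MPP (blue, lower), and the CDP difference minus the MPP difference (right); bars are 95% intervals and filled symbols are called. Hp shows the largest CDP difference of the 9 (−2.57), and 3 of the 9 differences between the cell types are filled.

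Adgre1 encodes an adhesion G protein-coupled receptor that is the classical surface marker of mouse macrophages. On the CDP arrays it read 11.48, 11.32 and 12.40 at 0 h, 11.28, 11.00 and 12.01 at 2 h, 9.21, 9.16 and 10.92 at 12 h and 8.00, 7.50 and 9.39 at 24 h (replicates 1, 2 and 3). On the MPP arrays it read 10.99, 11.33 and 11.35 at 0 h, 10.88, 11.20 and 11.10 at 2 h, 10.28, 10.89 and 10.63 at 12 h and 9.84, 10.12 and 10.11 at 24 h. CDP replicate 3 was the highest of its group at all 6 times, by 0.83 over the group mean on average, and yet it took the same downward course. The CDP arrays at 24 h lay below all those at 0 h, and 57.4% of the 24 h difference of −3.44 had been reached by 12 h. Between 2 and 12 h Adgre1 fell by 1.67 ± 0.17 (SE, 3 arrays per group) in CDP, with a limma adjusted p of 1.34e-05. In MPP the same difference was −0.46 ± 0.08 (adjusted p = 0.00147), under the required size. The CDP difference minus the MPP difference was −1.21 ± 0.20 (adjusted p = 0.000368). Both the CDP call (adjusted p = 0.0712) and this interaction (adjusted p = 0.542) were lost without the replicate block. The CDP call was also lost with only the 6 arrays of both times (adjusted p = 0.0112), and the interaction without replicate 1 (adjusted p = 0.0456) or 2 (adjusted p = 0.077).

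The relatives of Adgre1 on the array moved in the same direction in CDP. Adgre4, a receptor of myeloid cells, fell by 2.28 ± 0.44 between 2 and 12 h in CDP (adjusted p = 0.00225), and Adgre5, which encodes the leukocyte receptor CD97, by 1.47 ± 0.11 (adjusted p = 8.8e-07). In MPP neither was called in this contrast, at −0.27 and −0.36. For Adgre4 the contrast starts after a decrease in MPP. Against 0 h it differed there by −1.25 at 2 h, −1.94 at 8 h (called) and −1.51 at 12 h. In CDP it differed from 0 h by −0.25 at 2 h and −2.53 at 12 h. For Adgre5 the difference between the cell types passed (−1.10 ± 0.14, adjusted p = 1.73e-05), and for Adgre4, at −2.02, it did not.

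Mrc1 encodes the mannose receptor CD206, an endocytic receptor for mannose-rich glycoproteins on macrophages and some dendritic cells. It was the earliest of the 9 to drop in CDP, with levels of 8.36, 7.99 and 8.77 at 0 h, 7.59, 7.11 and 6.90 at 2 h, 6.23, 6.54 and 6.94 at 4 h, 6.02, 6.12 and 5.99 at 8 h and 6.13, 6.06 and 5.94 at 24 h. All CDP arrays at 2 h were below all those at 0 h, and 50.3% of the 24 h difference was present by 2 h and 99.9% by 8 h. In MPP it read 5.89, 5.92 and 5.91 at 24 h, against 6.67, 7.05 and 6.62 at 0 h, below all CDP arrays of 0 h. From 8 h on the 2 cell types met at 5.89 to 6.13, among the low values of the array, so a further decrease could not be seen. Mrc1 fell by 1.23 ± 0.20 in CDP between 2 and 12 h (adjusted p = 0.000628), a call lost without replicate 1 (adjusted p = 0.0207) or 2 (adjusted p = 0.018). The MPP difference was −0.50 ± 0.10 (adjusted p = 0.00458). The difference between them was −0.73 (95% interval −1.23 to −0.24, adjusted p = 0.0886). The other members of the mannose receptor family, Mrc2, Pla2r1 and Ly75, the last of which encodes the dendritic cell receptor DEC-205, had differences of −0.12 to 0.04 in this contrast in both cell types, with 0 of 3 at an unadjusted limma p under 0.05 in either.

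Msr1 encodes the class A scavenger receptor, which takes up modified lipoproteins and bacterial products. The CDP arrays read 8.40, 8.78 and 9.09 at 0 h, 8.22, 8.67 and 9.21 at 2 h, 7.50, 7.31 and 7.66 at 12 h and 7.24, 7.19 and 7.18 at 24 h. The MPP arrays read 9.51, 10.63 and 10.42 at 0 h, 9.69, 10.59 and 9.72 at 2 h, 7.98, 9.15 and 8.44 at 12 h and 7.37, 8.42 and 8.31 at 24 h. MPP replicate 1 was below its group mean at all 6 times. Msr1 fell by 1.21 ± 0.15 in CDP (adjusted p = 6.91e-05) and fell by 1.48 ± 0.14 in MPP (adjusted p = 7.03e-06) between 2 and 12 h, and the difference of both was 0.27 (95% interval −0.18 to 0.72, adjusted p = 0.649). Without the replicate block the MPP call was lost (adjusted p = 0.0696), and the CDP call was lost without replicate 2 (adjusted p = 0.0136) or with only the 6 arrays of both times (adjusted p = 0.0151). Among 13 other scavenger receptors measured, 1 fell in CDP in this contrast, Stab1, an endocytic receptor of macrophages and sinusoidal endothelium (−1.20 ± 0.19). Against 0 h Stab1 differed in CDP by 1.16 at 2 h, 1.24 at 4 h and −0.04 at 12 h, so its level at 12 h was close to that of untreated cells. In MPP 1 rose, Cxcl16, a transmembrane chemokine that also binds oxidised lipoprotein (1.32 ± 0.23), with a difference of 0.13 in CDP and no passing difference between the cell types (adjusted p = 0.139). Against 0 h Cxcl16 was higher at 24 h in both, by 2.36 in CDP and 1.68 in MPP. Marco and Cd163, receptors of mature macrophages, differed by −0.12 to 0.02 at 24 h against 0 h in both cell types, at mean levels of 6.2 to 7.2.

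Bst1 encodes CD157, a glycosylphosphatidylinositol-anchored ectoenzyme first known from bone marrow stroma and later from myeloid cells. Its decrease by 24 h was of similar size in both populations. The CDP arrays read 9.64, 9.28 and 9.84 at 0 h, 9.20, 8.85 and 9.26 at 2 h, 7.12, 6.85 and 7.60 at 12 h and 6.53, 6.79 and 7.14 at 24 h. The MPP arrays read 10.42, 11.00 and 10.79 at 0 h, 9.89, 10.56 and 10.12 at 2 h, 8.47, 9.28 and 8.41 at 12 h and 7.50, 8.18 and 8.10 at 24 h. The level decreased at every step in all 3 replicates of CDP and of MPP, and the 24 h differences were −2.77 in CDP and −2.81 in MPP. Bst1 fell by 1.91 ± 0.11 in CDP (adjusted p = 5.12e-08) between 2 and 12 h and fell by 1.47 ± 0.12 in MPP (adjusted p = 1.23e-06). Both calls held under all 16 alternatives tried for each. The difference of both was −0.44 (95% interval −0.79 to −0.09, adjusted p = 0.177).

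Fcgr1 encodes the high-affinity receptor for IgG, CD64, and Cd14 the co-receptor that passes lipopolysaccharide to Tlr4. At 2 h in CDP both were far higher on replicate 3, the library that stood apart, than on the other arrays. Fcgr1 read 9.85, 9.79 and 10.49 at 0 h, 9.76, 9.65 and 11.38 at 2 h, 8.79, 8.73 and 9.36 at 12 h and 7.72, 8.47 and 8.20 at 24 h on the CDP arrays. Its MPP arrays read 9.40, 9.69 and 9.46 at 0 h, 9.56, 9.76 and 9.64 at 2 h, 8.82, 9.07 and 8.93 at 12 h and 8.62, 9.22 and 9.06 at 24 h. The spread in MPP was small, and the 12 h arrays lay below all 2 h arrays in both cell types. Fcgr1 fell by 1.30 ± 0.26 between 2 and 12 h in CDP (adjusted p = 0.00294), but without CDP 2 h replicate 3 the difference was −0.91 (adjusted p = 0.00749), under the required size. This call was also lost without the replicate block, with only the 6 arrays of both times, without any 1 replicate number and without any 1 CDP array at 12 h, with adjusted p between 0.0111 and 0.0388. The MPP difference of −0.71 ± 0.06 had an adjusted p of 4.11e-06 and missed the required size. The difference of both was −0.59 (95% interval −1.18 to −0.00, adjusted p = 0.324).

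Cd14 had the largest SD of the 9 markers in CDP at 2, 4 and 24 h (1.30 at 2 h). The CDP arrays read 10.06, 9.70 and 11.00 at 0 h, 9.74, 9.36 and 11.78 at 2 h, 8.76, 8.50 and 9.93 at 12 h and 8.90, 7.49 and 9.67 at 24 h. The MPP arrays read 9.76, 10.05 and 10.74 at 0 h, 9.50, 9.92 and 9.57 at 2 h, 9.73, 10.73 and 9.32 at 12 h and 8.80, 8.89 and 8.99 at 24 h. In MPP the difference at 24 h against 0 h was −1.29, and −0.89 without MPP replicate 3 of 0 h, under the required size. Between 2 and 12 h the difference was −1.23 ± 0.34 in CDP (adjusted p = 0.0208) and 0.26 ± 0.29 in MPP (adjusted p = 0.671). Neither passed, and the CDP difference was −0.85 (adjusted p = 0.115) without replicate 3 at 2 h. Without replicate 1 at 2 h it passed, at −1.56 (adjusted p = 0.00787). The part of the interferon-stimulated genes in the high Cd14 and Fcgr1 levels was not tested.

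Of 10 other genes of lipopolysaccharide sensing, 2 fell there between 2 and 12 h: Ly96, which encodes the Tlr4 partner MD-2 (−1.08 ± 0.10, adjusted p = 4.77e-06), and Lbp, which encodes the plasma protein that delivers lipopolysaccharide to Cd14 (−1.05 ± 0.10, adjusted p = 1.02e-05). In MPP 0 were called, and 4 were lower at an unadjusted limma p under 0.05. At 24 h against 0 h, 4 of these 10 genes were called lower in CDP and 0 higher, beside 1.79% of all genes called lower. Their median was −0.59 and the lowest value −2.56. Tlr2 (0.01) and the adaptor gene Myd88 (−0.04) were among those with small differences. In MPP 0 of the 10 were called at 24 h. Of 4 other genes of IgG Fc receptors, Fcgr4, an activating receptor of monocytes, fell by 2.19 ± 0.13 in CDP (adjusted p = 7.17e-08), and its difference between the cell types passed (interaction −1.26 ± 0.19, adjusted p = 0.000122). Fcgr3 and the inhibitory receptor gene Fcgr2b were not called between 2 and 12 h (−0.85 and −0.70 in CDP), and were 2.79 and 1.28 lower at 24 h than at 0 h. The shared signalling chain gene Fcer1g differed by −0.20 in CDP and by −0.02 in MPP at 24 h against 0 h.

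F13a1 encodes the A subunit of coagulation factor XIII, a transglutaminase that cross-links fibrin and is made by monocytes and megakaryocytes. The CDP arrays read 10.87, 10.64 and 9.45 at 0 h, 10.40, 10.09 and 8.56 at 2 h, 8.72, 8.17 and 7.00 at 12 h and 7.01, 7.43 and 6.88 at 24 h. The MPP arrays read 13.08, 13.54 and 13.11 at 0 h, 12.95, 13.36 and 13.05 at 2 h, 12.54, 13.04 and 12.62 at 12 h and 11.92, 12.72 and 12.13 at 24 h. CDP replicate 3 was the lowest of its group at all 6 times, the opposite of its place for Adgre1. Between 2 and 12 h F13a1 fell by 1.72 ± 0.23 in CDP (adjusted p = 0.000134), and the MPP difference was −0.39 ± 0.06 (adjusted p = 0.000799), under the required size. The difference of both was −1.34 ± 0.25 (adjusted p = 0.00157). The CDP call and the interaction were lost without the replicate block (adjusted p = 0.0761 and 0.518) and without replicate 2 (adjusted p = 0.0204 and 0.171). Of 7 other transglutaminase genes, Tgm2, the tissue transglutaminase, fell by 2.07 ± 0.15 in CDP in this contrast (adjusted p = 7.49e-07), after a higher level at 2 h than at 0 h. Against 0 h it differed by 1.35 at 2 h and by −0.72 at 12 h. Tgm1, the keratinocyte enzyme, fell by 1.12 ± 0.12 in MPP (adjusted p = 2.92e-05). F13b, the carrier subunit of factor XIII, was at 5.7 to 5.8 in all groups at 0 and 24 h.

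Hp encodes haptoglobin, the acute phase protein that binds free haemoglobin and is also stored in granules of developing neutrophils. The CDP arrays read 12.13, 11.60 and 12.10 at 0 h, 11.96, 11.51 and 12.37 at 2 h, 9.51, 8.85 and 9.78 at 12 h and 8.36, 7.41 and 8.79 at 24 h. The MPP arrays read 12.71, 13.02 and 13.20 at 0 h, 12.66, 12.89 and 12.76 at 2 h, 12.32, 12.98 and 12.23 at 12 h and 11.87, 12.10 and 12.16 at 24 h. Up to 2 h the CDP mean changed by 0.00, and the largest step came between 4 and 8 h (−1.36). The difference at 4 h against 0 h was −0.38, and −0.68 without CDP replicate 1 of 4 h. Between 2 and 12 h Hp fell by 2.57 ± 0.20 in CDP, 5.93-fold, with an adjusted p of 1.19e-06. In MPP the difference was −0.26 ± 0.13 (adjusted p = 0.288). The CDP difference minus the MPP difference was −2.31 ± 0.26 (adjusted p = 2.12e-06), and of the interactions of the 3 markers called it was the one that passed under all 21 alternatives (−2.46 to −2.09). Of the 7 other genes of haemoglobin and haem clearance, 0 were called by limma between 2 and 12 h, and 3 in CDP and 1 in MPP were lower at an unadjusted p under 0.05. Hmox1, which encodes the haem-degrading enzyme haem oxygenase, was 1.55 lower in CDP and 1.41 lower in MPP at 24 h than at 0 h, and the haptoglobin-haemoglobin receptor gene Cd163 was at 6.2 in all groups at 0 and 24 h.

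Chil3 encodes Ym1, a chitinase-like protein of alternatively activated macrophages and of neutrophil precursors. It was the 1 marker with no decrease measured at 24 h in either cell type. The CDP arrays lay between 5.75 and 6.24 at all 6 times, among the low values of the arrays, so a decrease in CDP could not be seen. The MPP arrays read 10.42, 11.43 and 11.82 at 24 h, against 10.07, 11.20 and 11.43 at 0 h, and the cell types did not overlap at any time. MPP replicate 1 was below the others at every time, by 0.81 under the group mean on average. The neutrophil list showed the same order of MPP replicates at 0 h (10.74, 11.26 and 11.45). Between 2 and 12 h the difference was 0.08 ± 0.11 in CDP (adjusted p = 0.749) and 0.24 ± 0.08 in MPP (adjusted p = 0.0635). The 6 other chitinase-like and chitinase genes differed by −0.02 to 0.05 in CDP and by −0.06 to −0.03 in MPP between 2 and 12 h, with 0 at an unadjusted limma p under 0.05. Chil4, a close copy of Chil3 whose RNA its probes might in part detect, was at 5.3 to 5.7 in all groups at 0 and 24 h.

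The second comparison set CDP against MPP at each time, over all 36 arrays and without a block. Nothing in the labels ties the replicate numbers of both cell types. This fit counts arrays of the same replicate number at different times as independent, though their residuals correlated within a cell type. Its p-values are therefore likely too small, and calls at the 6 times are not independent of each other. The 0 h and 24 h arrays of this comparison also entered the changes known when the markers were picked. Calls and adjusted p-values of the markers at 0 h and 24 h are therefore a description and no test. At 0, 2, 4, 8, 12 and 24 h the number of markers called lower in CDP was 4, 4, 4, 4, 4 and 5, where 1.55%, 1.74%, 1.71%, 1.91%, 2.19% and 2.98% of all genes were called lower. Mrc1 was called higher at 0 h. At later times 0 markers were called higher by limma (1 at 2 h at an unadjusted p under 0.05, Mrc1 again), where at 0 to 24 h 1.26%, 1.36%, 1.41%, 1.44%, 1.54% and 2.07% of all genes were called higher. The measured difference for Chil3 was −4.98 ± 0.40 at 0 h (adjusted p = 9.35e-11) and −5.19 ± 0.40 at 24 h (adjusted p = 1.93e-11). Its CDP levels were among the low values of the arrays and are not shown to be above background, so the true difference could be larger and no fold is given. For F13a1 it was −2.92 ± 0.46 at 0 h (adjusted p = 1.7e-05), −4.77 ± 0.46 at 12 h and −5.15 ± 0.46 at 24 h (adjusted p = 4.31e-10), and the F13a1 arrays of the cell types did not overlap at any time. Bst1 was lower in CDP by 1.09 to 1.53 and called at all 6 times. Its call was lost without 1 or more of the replicate numbers or single arrays at 0, 2, 8 and 24 h and without replicate 2 at 4 h, with values of −0.77 at 2 h and −0.87 at 0 h without replicate 2 of both cell types.

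For Hp the gap opened over the course. The difference was −1.03 ± 0.31 at 0 h (adjusted p = 0.0173), −0.82 ± 0.31 at 2 h (adjusted p = 0.0564) and −1.03 ± 0.31 at 4 h (adjusted p = 0.0148). The 4 h value passed without CDP replicate 1 of 4 h (−1.41, adjusted p = 0.00122), one of the arrays high for interferon-stimulated genes, with dim genes left out (adjusted p = 0.00921) and with a replicate block shared by the cell types (adjusted p = 0.00883). From 8 h on it passed, at −2.16, −3.13 and −3.86 ± 0.31 at 8, 12 and 24 h (adjusted p = 5.24e-11 at 24 h). As said above, the limma values at 0 h and 24 h are a description and no test, for Hp as for Adgre1. Adgre1 did not pass at first, at 0.51 ± 0.43 at 0 h (95% interval −0.37 to 1.40, adjusted p = 0.461), and was lower in CDP at 24 h, at −1.73 ± 0.43 (adjusted p = 0.00207). That call was lost without replicate 1 or 2, or without CDP 24 h replicate 1 or 2, with values of −1.67 to −1.28, and with only the 6 arrays compared (adjusted p = 0.0156). Mrc1 went the other way. It was higher in CDP at 0 h by 1.59 ± 0.17 (3.02-fold, adjusted p = 1.45e-08), without overlap of the arrays, and by 0.72 at 2 h (adjusted p = 0.00156), under the required size. At 8, 12 and 24 h the difference was 0.01, −0.02 and 0.13, with 95% intervals inside −0.36 to 0.47.

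Msr1 was lower in CDP by 1.43 ± 0.35 at 0 h (adjusted p = 0.00271), by 1.30 at 2 h and by 1.25 at 4 h, and at later times it missed the threshold (−1.13, −1.03 and −0.82). Of 16 alternatives, 7, 8 and 9 ended the call at 0, 2 and 4 h, with −1.20 at 0 h without MPP replicate 2 (adjusted p = 0.0269) and −1.24 at 4 h without CDP replicate 1 of 4 h (adjusted p = 0.0221) as examples. Cd14 and Fcgr1 were called at no time. Their differences at 0 h were 0.07 (95% interval −1.09 to 1.23) and 0.53 (95% interval −0.10 to 1.15), and at 24 h −0.21 (−1.37 to 0.95) and −0.83 (−1.46 to −0.21, adjusted p = 0.0298).

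**Figure D3:**
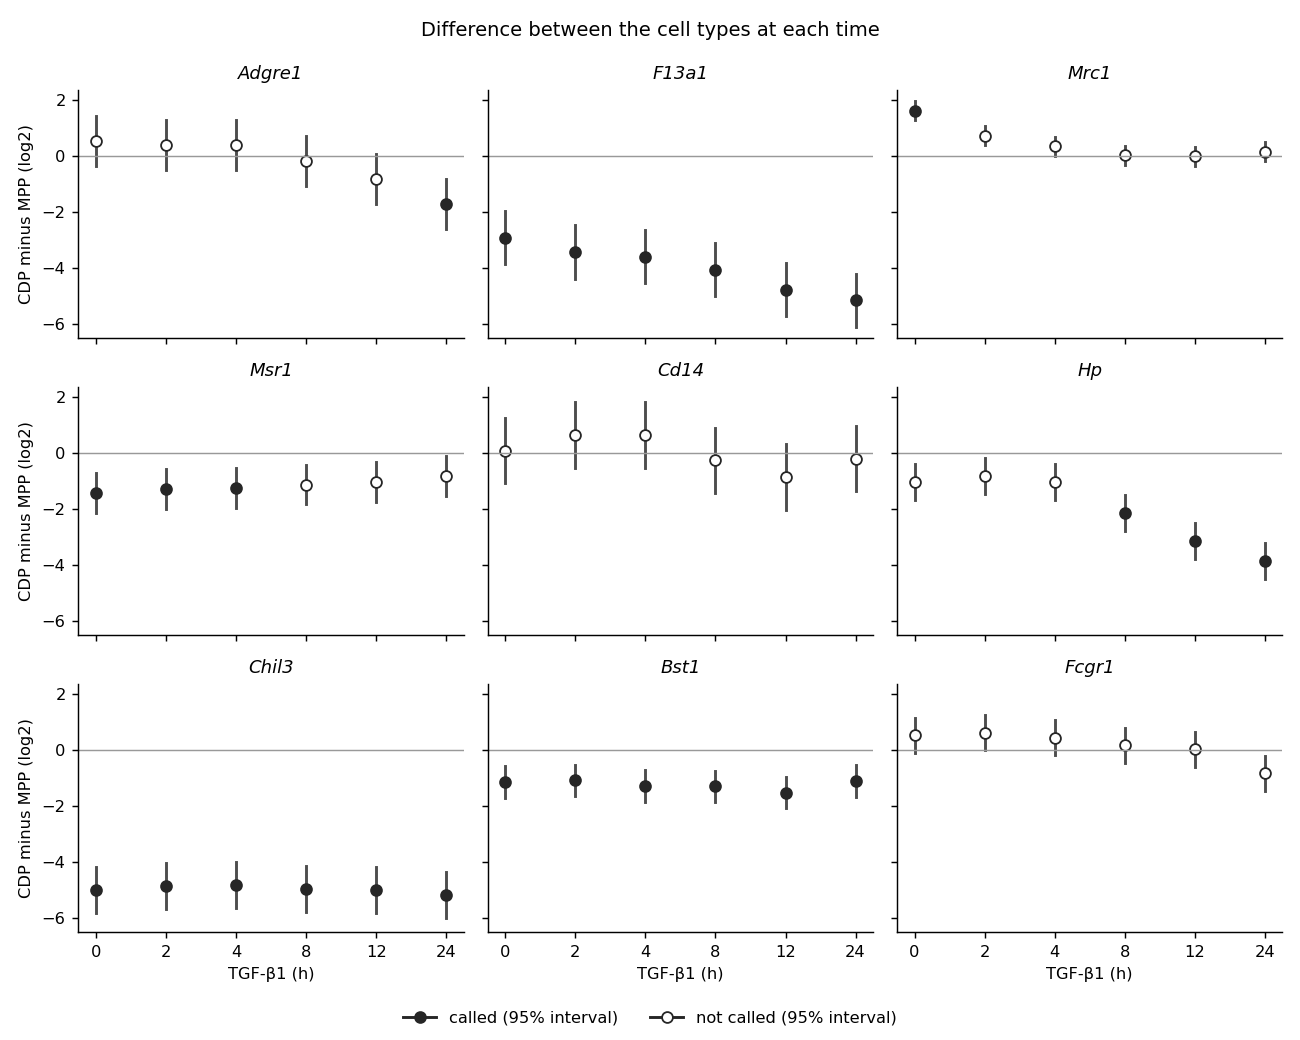
Log2 difference of CDP minus MPP (y axis, 0 is equal) against hours of TGF-β1 (x axis, times evenly spaced) for each marker; bars are 95% intervals and filled points are called. Chil3 sits near −5 at all times, Hp and F13a1 move away from 0, and Mrc1 comes to 0 by 8 h.

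The order of the 12 group means differed from marker to marker. F13a1 was higher in each MPP group than in each CDP group, and MPP at 24 h was still clear of CDP at 0 h, the 1 pair of neighbours in its order whose arrays did not overlap. Chil3 also had all MPP groups above all CDP groups, with no overlap between MPP at 2 h and CDP at 24 h. Adgre1 was highest in CDP at 0 h (11.73) and lowest in CDP at 24 h (8.30), with MPP groups between, and all 11 pairs of neighbours overlapped. Hp ran from MPP at 0 h (12.97) to CDP at 24 h (8.18), and 8 of 11 pairs of neighbours overlapped.

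Promoter sequences are shown for the markers for which the search had one, and these were not chosen by their courses. Mrc1 was an early one and F13a1 and Fcgr1 later ones. Chil3 was not lower at 24 h in MPP and lay among the low values in CDP. The sequences are the 250 bases before the annotated start from RefSeq on GRCm38.p6, and windows of 4 of the 9 markers were searched. The other 5 are named only, and Cd14 is among them because its chromosome was left out of the search. The markers lie apart in the genome, Adgre1 on chromosome 17, F13a1 on 13, Mrc1 on 2, Bst1 on 5, Msr1 and Hp on 8 and Chil3 and Fcgr1 on 3. The windows are chr2:14229164-14229413 (plus strand) for Mrc1, chr13:37050245-37050494 (minus strand) for F13a1, chr3:96293970-96294219 (minus strand) for Fcgr1 and chr3:106167565-106167814 (minus strand) for Chil3. Capitals mark the letters GAGGAA or, from the other strand, TTCCTC, a core bound by the myeloid factor PU.1.
Mrc1: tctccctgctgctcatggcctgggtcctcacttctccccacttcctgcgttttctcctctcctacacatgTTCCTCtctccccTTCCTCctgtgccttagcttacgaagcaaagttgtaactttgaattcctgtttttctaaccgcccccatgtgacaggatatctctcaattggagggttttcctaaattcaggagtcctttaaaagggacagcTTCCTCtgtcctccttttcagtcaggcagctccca
F13a1: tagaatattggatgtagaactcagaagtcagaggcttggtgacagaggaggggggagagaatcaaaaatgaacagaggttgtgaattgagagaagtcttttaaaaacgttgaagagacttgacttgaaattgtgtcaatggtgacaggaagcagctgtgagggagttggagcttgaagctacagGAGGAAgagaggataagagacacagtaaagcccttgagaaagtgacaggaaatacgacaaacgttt
Fcgr1: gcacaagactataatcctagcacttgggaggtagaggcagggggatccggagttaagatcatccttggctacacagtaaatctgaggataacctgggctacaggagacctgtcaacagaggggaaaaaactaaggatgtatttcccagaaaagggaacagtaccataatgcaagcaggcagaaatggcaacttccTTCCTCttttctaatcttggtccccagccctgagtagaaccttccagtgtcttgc
Chil3: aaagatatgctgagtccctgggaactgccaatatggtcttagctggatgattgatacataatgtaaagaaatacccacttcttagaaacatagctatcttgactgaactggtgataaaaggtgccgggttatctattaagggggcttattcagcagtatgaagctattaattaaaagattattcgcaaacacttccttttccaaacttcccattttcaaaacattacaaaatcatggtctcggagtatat

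The Mrc1 window holds 3 matches, which begin 180, 167 and 35 bases before the start. F13a1 holds 1 at 66 bases and Fcgr1 1 at 55 bases before the start, and these letters are not in the Chil3 window. Of 32851 mouse windows of this length 23.3% hold at least 1 match, so a single match is common. The C/EBP half-sites TTGCNNAA, the Smad box CAGAC and the AP-1 letters TGANTCA, searched on both strands, are in none of these 4 windows, and are in 9.56%, 42.2% and 6.75% of all windows. A second annotated start of F13a1 (window chr13:37049214-37049463) holds 1 CAGAC match on the other strand and no PU.1 core. The motifs were chosen after the values were seen, and a match is no evidence of binding.

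A list of other genes of monocytes and macrophages had 48 measured members. Of these, 4 fell in CDP between 2 and 12 h (Fcgr4, Ms4a4a, Ms4a6d and Lpl) and 1 in MPP (Ms4a4a), and the median difference was −0.25 in CDP and −0.04 in MPP. Ms4a4a, a membrane protein of the MS4A family, fell by 2.31 ± 0.13 in CDP (adjusted p = 5.95e-08) and by 1.55 ± 0.15 in MPP (adjusted p = 6.84e-06). Lpl, the lipoprotein lipase gene, fell by 2.44 ± 0.20 in CDP (adjusted p = 2.09e-06), and its change was larger than in MPP (interaction −1.81 ± 0.26, adjusted p = 6.64e-05). At 24 h against 0 h, 16 of the 48 were called lower in CDP and 5 in MPP, beside 1.79% and 0.487% of all genes. The medians of the list were −0.52 and −0.15. Fn1, the fibronectin gene, is given as an example of those called in CDP (−2.79, and −0.46 in MPP). Others were Clec7a, the β-glucan receptor gene (−2.44 in CDP, −0.34 in MPP), and Lyz2, the lysozyme gene (−1.94 in CDP, −0.20 in MPP). These examples all had MPP differences under the required size, while the lowest MPP difference in the list was −2.28.

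The list also held genes with small differences at 24 h, of which the next 4 were picked after their values were seen. The M-CSF receptor gene Csf1r differed by −0.35 in CDP and 0.08 in MPP at 24 h against 0 h, the integrin gene Itgam by −0.18 and −0.12, the phagocyte oxidase gene Cybb by −0.37 and −0.44 and the adaptor gene Tyrobp by −0.05 and −0.00. Cx3cr1, the fractalkine receptor gene, differed between the cell types in its course (interaction −1.10 ± 0.17, adjusted p = 0.000191), at −0.62 in CDP and 0.47 in MPP between 2 and 12 h. Ly6c1 and Ly6c2 had no probe set with that symbol alone and were not analysed here.

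**Figure D4:**
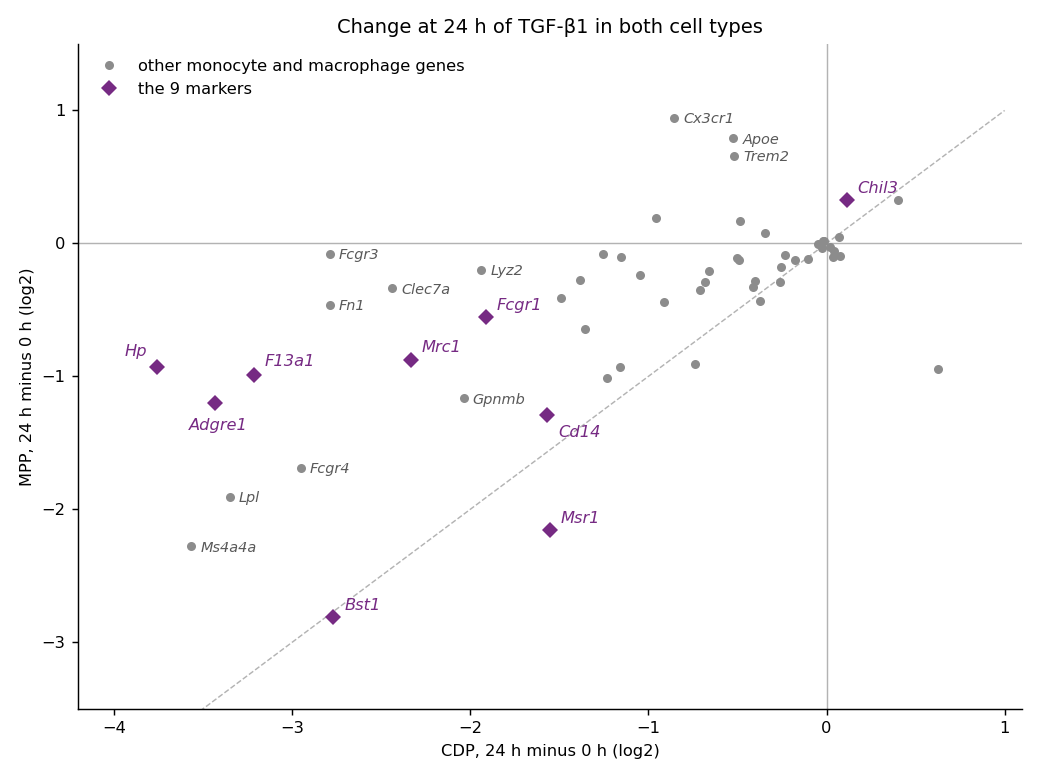
Log2 difference of 24 h minus 0 h in CDP (x axis) and in MPP (y axis) for the 9 markers (diamonds) and 48 other monocyte and macrophage genes (circles); the dashed line marks equal differences. Most of the larger CDP decreases lie above the line, where the MPP difference is smaller, while Bst1 lies on it and Msr1 below it.

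Among 22 myeloid transcription factor genes, 1 fell in CDP between 2 and 12 h, Cebpb (−1.33 ± 0.14, adjusted p = 1.87e-05), and 0 in MPP, where 5 were higher and 5 lower at an unadjusted limma p under 0.05. Cebpb encodes C/EBPβ, a factor of monocytes and inflammatory responses. Zeb2, a transcriptional repressor that dendritic cells and monocytes need for their development, had a course that differed between the cell types (interaction −1.13 ± 0.18, adjusted p = 0.000291). Spi1, which encodes PU.1, was at 13.5 at 24 h and 13.3 at 0 h in CDP, and at 13.1 and 13.2 in MPP. Maf, a macrophage factor, differed by −1.63 in CDP and −1.67 in MPP at 24 h against 0 h. Of the 10 myeloid growth factor receptor genes, Csf3r, the G-CSF receptor gene, fell in CDP by 1.08 ± 0.09 between 2 and 12 h (adjusted p = 3.65e-06), with 0.13 in MPP and an interaction of −1.21 ± 0.10 (adjusted p = 3.59e-08).

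Of the lists for other lineages, the Langerhans cell list (10 of 11 measured) had 6 genes called higher in CDP and 2 in MPP at 24 h against 0 h. Of all 19938 genes, 270 were called higher in CDP and 143 in MPP in this contrast. The Langerhans cell list is the one whose averages follow. It averaged 10.34 to 10.43 on the CDP arrays at 24 h and 8.67 to 8.89 at 0 h, and 8.71 to 8.84 at 24 h and 8.22 to 8.33 at 0 h on the MPP arrays. Of 17 neutrophil genes, 3 were called lower in CDP and 14 were not called, with a median of 0.00239 and a lowest value of −5.14. Of all genes, 1.79% were called lower in CDP at 24 h. The average of the neutrophil list was 7.56 to 7.89 at 24 h and 8.15 to 8.49 at 0 h in CDP, and 10.84 to 11.56 at 24 h and 10.74 to 11.45 at 0 h in MPP. Hp and Chil3 are also made by neutrophil precursors, and the part of such cells in their levels was not tested.

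The genes whose 12 group means were most like a marker's were taken from 2098 genes with a range of at least 1, by Pearson correlation over the 12 groups, as a description. Chil3 was most like S100a8, S100a9 and Elane (r of 0.9998, 0.9995 and 0.9993), genes of neutrophil granules and cytosol that share its large step between the cell types. F13a1 was most like Ap3s1, Lbp and Sqor (0.9967 to 0.9949), and Hp like Aoah, Ly96 and Cd302 (0.9942 to 0.9884). Adgre1 was most like Pilra, Arhgef10l and Lgals3 (0.9905 to 0.968), and Bst1 like Tarm1, Msr1 and Vcan (0.9813 to 0.9696). Msr1 followed Ctsl, Bst1 and Pi16, Mrc1 followed Slc37a3, Cd300lg and Cass4, Cd14 followed Pilrb1, Gpr132 and Gdpd1, and Fcgr1 followed Atf3, Fyb and Cd300ld, with a highest r of 0.9752, 0.9692, 0.9493 and 0.9589. Between the markers themselves r ran from −0.351 for Mrc1 with Chil3 to 0.975 for Msr1 with Bst1, with 0.927 for Adgre1 with Fcgr1.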

How the data were processed

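RNA of CDP and MPP was measured on 36 Affymetrix Mouse Gene 1.0 ST arrays, 3 for each cell type and time. The deposited values are log2 intensities that the authors made with RMA (background correction, quantile normalization between arrays and summary per probe set), and the submitters' processing notes name Affymetrix Power Tools. Versions and the genome build are not given in the sources used here. Quantile normalization gives all arrays nearly the same distribution, so a shift of total RNA would not be seen. For its own analysis the study summarised the arrays with FARMS, which was not used here. One protocol text gives 6 h where the sample labels give 8 h, and the labels were followed.

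Of 35556 probe sets, 21789 carried 1 gene symbol in the platform annotation, 1621 several and 12146 none. The first kind covers 19938 genes, and for the 999 genes with several probe sets the one with the highest mean was used. Of the genes in the lists, 18 had no such probe set and were not analysed here. Linear models were fitted with limma 3.58.1 (lmFit, eBayes; R 4.3.3), two-sided, with Benjamini-Hochberg adjustment over all 19938 genes, and a gene was called at an adjusted p under 0.01 and an absolute log2 difference of at least 1, the thresholds and the design (time and replicate factors) of the study. Changes over time came from the 18 arrays of each cell type, blocked by replicate number, CDP against MPP on 36 arrays without a block, and the difference of the courses on 36 arrays with the replicate within cell type as a block. The replicates are biological by the study's account, and nothing in the labels says that they came from separate animals. Residuals of arrays with the same number correlated above 0.1 in 43 of 45 pairs in CDP (lowest −0.128) and 45 of 45 in MPP, and in 11 of 18 pairs across the cell types.

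The markers and gene lists were chosen with earlier results of these data known. Genes named are the 9 markers, the 3 genes most like each over the 12 group means, and listed genes that were called or belong to a marker's family, with a few listed genes picked after their values were seen. Promoters came from RefSeq (GRCm38.p6). The fits were run on simulated data with independent noise and no replicate effect, so this could not test the replicate block. Alternatives were the fit without or with another block, only the arrays compared, the mean of a gene's probe sets, genes under a log2 level of 7.95 left out, arrays centred on their median, an intensity trend, all probe sets in 1 fit and each replicate or array left out. The number of arrays limits the precision.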

Additional observations from a re-analysis of the deposited data

Results flagged for a closer look

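Adgre1, F13a1 and Hp were taken out for a closer look because their change between 2 and 12 h differed between CDP and MPP by limma's interaction test. The CDP difference minus the MPP difference was −1.21 for Adgre1, −1.34 for F13a1 and −2.31 for Hp on the log2 scale. Within replicate numbers, each of them was lower at 12 h than at 2 h in 3 of 3 CDP replicates. The Hp value held under all 21 alternatives, with adjusted p of 8.4e-07 to 0.0058, while those of Adgre1 and F13a1 ranged up to 0.542 and 0.518.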

How the results depend on the processing

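No difference changed sign with a call. Of the tests of single markers under other settings, 1258 kept their side of the thresholds, 74 lost a call and 9 gained one. Without the replicate block, 4 markers were called in CDP at 12 h against 2 h (7 with it), Mrc1, Msr1, Hp and Bst1, and 4 at 12 h against 0 h (7). In MPP, 1 was then called at 12 h against 2 h, at 8 h and at 12 h against 0 h (2 each with the block) and 0 at 4 h (1). The difference of the courses was called for 1 marker (3) and 49 genes (103) without the block. With only the 6 arrays compared, 4 markers were called in CDP at 12 h against 2 h (7) and 2 in CDP against MPP at 2 h (4). With all probe sets in 1 fit, 125 features were called in CDP at 2 h against 0 h (65 genes) and 211 at 4 h (140), where more features were tested. Leaving out replicates or arrays gave 0 to 1 markers in CDP at 2 h against 0 h (1), 3 to 6 at 8 h (6) and 3 to 8 at 12 h against 2 h (7). In CDP at 12 h against 0 h it gave 6 markers in every case (7), and at 24 h 7 to 8 (8). In MPP at 24 h against 0 h it gave 3 to 5 markers (4). It gave 1 to 3 markers (3) and 56 to 141 genes (103) for the difference of the courses, with 56 without replicate 2 and 67 without replicate 1. For CDP against MPP it gave 3 to 5 markers at 0 h (5), 2 to 4 at 2 h (4), 2 to 4 at 4 h (4) and 3 to 5 at 24 h (5). The lowest counts at 8 h against 0 h in CDP, at 12 h against 2 h in CDP and at 4 h between the cell types came without replicate 2. Between the cell types, a shared replicate block gained calls for Hp at 4 h (adjusted p = 0.00883) and for Msr1 at 8 h (0.00115) and 12 h (0.00263), leaving out dim genes for Hp at 4 h (0.00921) and Msr1 at 8 h (0.00928), and fitting only 6 arrays for Hp at 0 h (0.00376). Without replicate 3 Adgre1 was called at 12 h, at −1.40. The causes were not tested. Mrc1 from 8 h on, and Cd163, Marco and Chil3 in CDP, lay among the low values of the arrays, where further decreases cannot be measured.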
